A study of Mus musculus with 6 samples.

Results

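The Golgi enzymes that place sialic acid, galactose, fucose, N-acetylglucosamine and N-acetylgalactosamine on glycoproteins and glycolipids were followed in mouse astrocytes given tumour necrosis factor (TNF). Members were the genes whose symbols begin with St3gal, St6gal, St8sia, B3gnt, B3galt, B4galt, B4galnt, Galnt or Mgat, or consist of Fut and a digit, plus Ggta1. The choice of members used symbols only, though earlier results of these data were known when it was made. Of 19926 genes measured, 81 were such members. B4galt2 shared its probe set with another gene, and Ggta1 and Fut1 were matched to no probe set of their own, so these 3 genes were not analysed here. The labels describe primary astrocytes of the C57BL/6J strain, without an animal age. The TNF group (3 arrays) received TNF at 50 ng/mL and was collected after 24 h, and the control group (3 arrays) is labelled control for the same time. Arrays are numbered 1 to 3 in each group. Whether replicates came from different cultures or mice is not stated in the labels, and the p-values therefore cover only the spread among these arrays, possibly a technical one. The series title frames the comparison as one of inflammation, NF-kB and a progenitor-like state of astrocytes.

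Glycans are built stepwise by transferases in the Golgi, each adding 1 sugar from an activated donor to 1 kind of acceptor, so that the set of enzymes a cell makes shapes which chains reach its surface. Sialic acid usually ends a chain. In the brain the best known sialylated products are the gangliosides, glycolipids of the plasma membrane, and polysialic acid, a long chain on the neural cell adhesion molecule that is typical of immature and plastic neural cells. Fucose added near the end of a chain gives the Lewis x structure, used as a surface mark of neural progenitors, and N-glycan branching and mucin-type O-glycans supply the antennae on which these caps sit.

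Values are log2 signals, in which a step of 1 is a doubling, and differences are TNF minus control. A gene was called at an adjusted p under 0.05 (limma, Benjamini-Hochberg over all 19926 genes). The median of the gene means was 7.63, and 46 of the 81 members lay below it. Low signals may lie near background, since presence calls were not used here. Array signals understate large folds, and the number of arrays limits the precision. The astrocyte markers were present, with Gfap at 11.91 ± 0.44 (SD, n = 3) in controls, but Gjb6 and S100b were dim, with means over all arrays of 5.20 and 6.39. The lower quartiles of both arrays numbered 3 were 6.27 and 6.33 against 6.01 to 6.09 on the other arrays. Mean microglia marker signals (15 of 16 markers measured) ran from 6.47 to 7.94 in controls and from 6.59 to 8.01 with TNF, highest on the arrays numbered 3 in both groups. Their part in the results below was not tested. In cultures, a change in the make-up of the cells and a change of RNA per cell cannot be told apart.

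A few sialyltransferases carried the clearest changes. With TNF, St6galnac5 and St6galnac3, which add sialic acid to the inner sugar of already sialylated chains, and St8sia2, a polysialic acid synthase, fell, while St3gal3, which caps galactose, rose. The O-glycan initiating enzymes Galnt16 and Galnt17 also fell, and B4galt5, a lactosylceramide synthase, and Fut4, a Lewis x fucosyltransferase, also rose. These 3 higher and 5 lower genes were the only calls without a replicate block. Of all genes tested, 3.87% were called higher and 3.33% lower, against 3.70% and 6.17% of the members, so the share of members called higher was near that of all genes.

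Calls depended on the pairing of the arrays. The replicate numbers pair the samples by their values, and with the number as a block 8 members were higher and 18 lower, including all 8 called without it. Over all genes the block called 9.73% higher and 11.8% lower, beside 9.88% and 22.2% of the members. The block changes the error and the degrees of freedom but not the difference. Groups did not overlap in 9 members that were higher and 15 that were lower, or 11.1% and 18.5%, against 12.3% and 11.7% of all genes. All 3 pairs were higher in 13 members and lower in 28, or 16.0% and 34.6%, against 25.7% and 26.9% of all genes. The median difference was -0.044 over the members and -0.0033 over all genes.

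**Figure D1:**
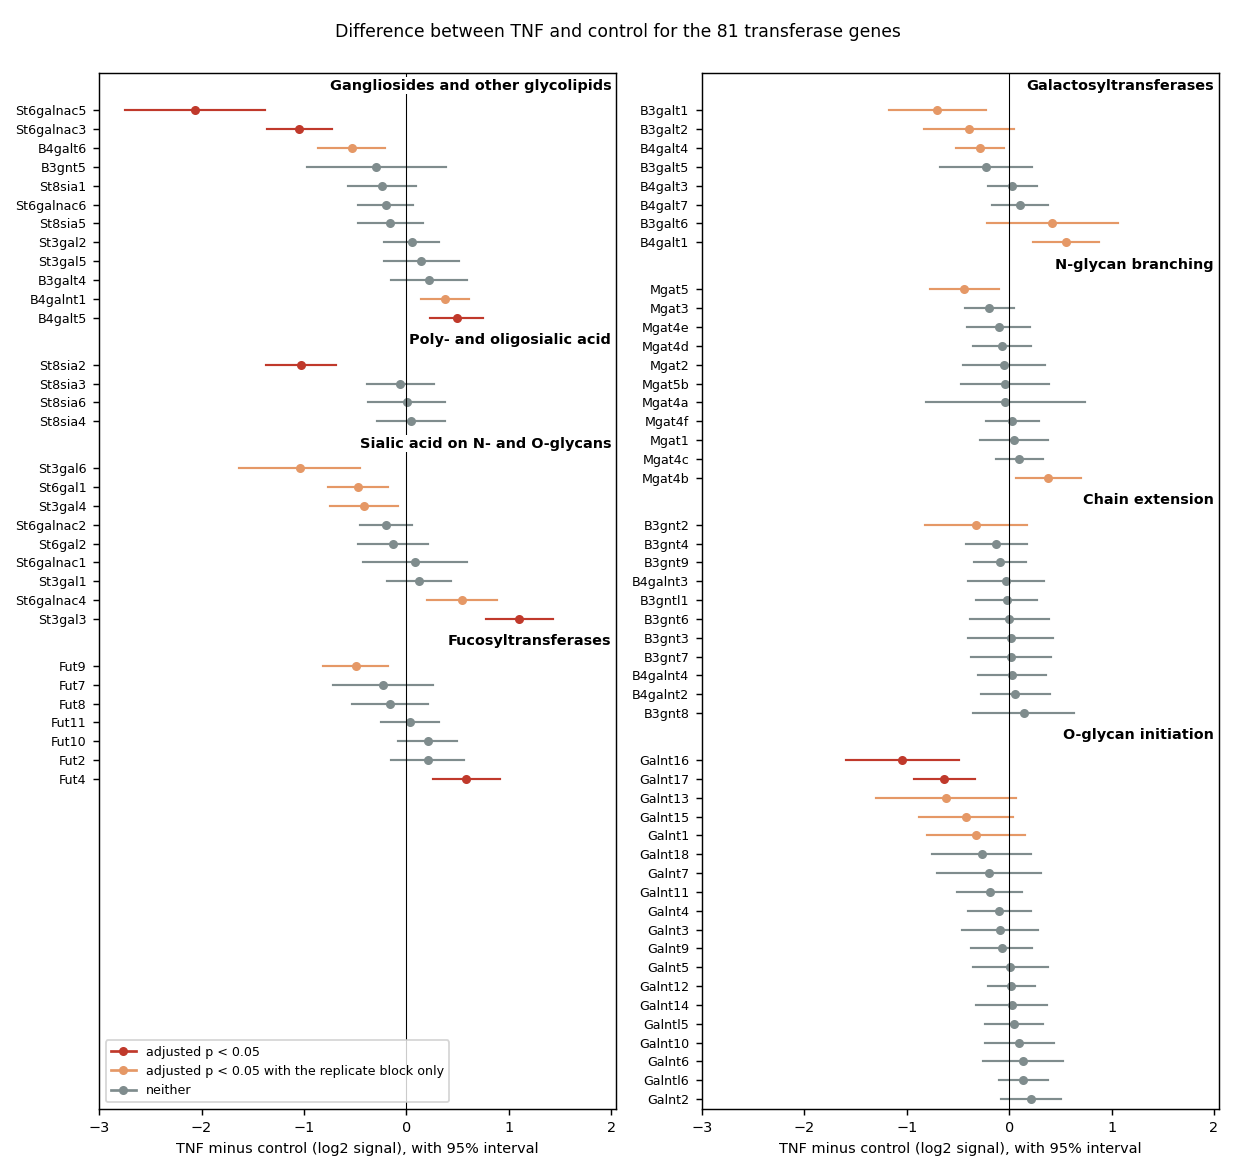
Difference in log2 signal between TNF and control (points) with its 95% interval (lines) for each of the 81 members, grouped by the step assigned to them here. The 8 red genes were called without the block and the 18 orange genes with the replicate block only; St6galnac5 lies farthest to the left at -2.07 and St3gal3 farthest to the right at 1.10.

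The promoters of 3 of the most changed members are shown because they carry opposite responses: St3gal3 rose, and St8sia2 and St6galnac3 fell. Each line gives the 250 bases before a transcript start in the RefSeq promoter table, on the gene's strand, build GRCm38.p6, 5′ to 3′, and capitals mark GC boxes (GGGCGG on either strand), a motif chosen after the sequences were seen. The windows are chr4:118134947-118135196, minus strand, for St3gal3, chr7:74013683-74013932, minus strand, for St8sia2, and chr3:153725134-153725383, minus strand, for St6galnac3. The St3gal3 and St8sia2 windows end 26 and 45 bases inside the outermost start that RefSeq gives for the gene, so these starts are not the outermost ones.
St3gal3: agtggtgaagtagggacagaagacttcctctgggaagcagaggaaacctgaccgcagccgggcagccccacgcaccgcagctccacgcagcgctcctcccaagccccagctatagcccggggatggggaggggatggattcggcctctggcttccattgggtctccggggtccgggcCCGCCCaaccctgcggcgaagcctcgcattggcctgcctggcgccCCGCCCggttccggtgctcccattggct
St8sia2: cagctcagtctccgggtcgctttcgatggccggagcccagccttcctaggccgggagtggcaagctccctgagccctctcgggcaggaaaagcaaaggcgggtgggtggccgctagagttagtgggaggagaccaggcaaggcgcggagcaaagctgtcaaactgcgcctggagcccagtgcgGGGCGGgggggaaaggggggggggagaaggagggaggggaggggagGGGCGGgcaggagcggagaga
St6galnac3: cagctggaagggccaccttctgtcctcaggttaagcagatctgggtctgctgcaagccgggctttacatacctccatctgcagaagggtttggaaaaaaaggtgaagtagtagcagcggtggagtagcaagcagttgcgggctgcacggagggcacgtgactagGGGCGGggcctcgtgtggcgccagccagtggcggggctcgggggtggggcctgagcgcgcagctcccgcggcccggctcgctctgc
The St3gal3 and St8sia2 windows hold 2 GC boxes each and the St6galnac3 window holds 1. Of all 32851 windows in the table, 32.7% hold at least 1 GC box, as do 49.4% of the 81 windows of the 60 members with an entry. These windows are rich in G and C, at 68.4%, 68.8% and 64.8%, beside a median of 59.6% for the members' windows and 52.4% for all.

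Motifs of factors downstream of TNF and interferon were also searched. None of the 7 called members with an entry held the NF-kB motif, the GAS motif (TTCNNNGAA) or the interferon-response motif in the 250 bases, searched on both strands. Over all windows these motifs occur in 7.25%, 7.02% and 2.98%, and over the members' windows in 4.94%, 6.17% and 1.23%. Among members called with the block only, B4galt1, which was higher, holds a GAS match and St3gal6, which was lower, an NF-kB match. Both are shown with 10 bases on each side, the match in capitals, from chr4:40854065-40854093 and chr16:58523530-58523559, both on the minus strand. St3gal6 has 2 windows in the table, and its match lies before the inner start. The stretch shown, with its flanks, lies 701 to 731 bases downstream of the outermost start of the gene.
B4galt1: cccccccaggTTCCGCGAAcagccttccg
St3gal6: ttttcctgtcGGGGACTCCCagcgagagca
A match is only a description of the letters, and binding was not measured.

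Enzymes of ganglioside and other glycolipid synthesis moved both ways: of 12 measured, 1 rose and 2 fell, and with the block 2 were higher and 3 lower. For this group and those below, the shares of all genes were 3.87% called higher and 3.33% lower. With the block they were 9.73% and 11.8%, and no group was tested against them. St6galnac5, which makes the alpha-series ganglioside GD1alpha, had signals of 9.57, 9.60 and 8.45 in controls 1, 2 and 3 and 7.22, 7.17 and 7.03 with TNF, in the same order. Control 3 was lower than the other controls by more than 1 log2 unit, yet all controls lay above all TNF samples, which were close together. The gene fell by 2.07 on the log2 scale (SE 0.29, 4.18-fold lower, limma adjusted p = 0.00565). Over the 6 fits without 1 array the difference ran from -2.44 to -1.87. The limma adjusted p ran from 2.02e-04 without control 3 to 0.0274 without control 1.

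St6galnac3, a relative with the same kind of acceptor, had control signals of 7.44, 7.13 and 7.08 and TNF signals of 6.26, 6.03 and 6.22. The groups did not overlap and no array stood apart, although the signal lay in the dimmer part of the array. St6galnac3 fell by 1.05 (SE 0.14, 2.07-fold lower, limma adjusted p = 0.00398). The St6galnac3 and St6galnac5 genes are direct neighbours among the protein-coding genes of chromosome 3 in GRCm38.p6. The genes on the outer sides of the pair, Pigk beside St6galnac5 and Asb17 beside St6galnac3, differed by 0.30 and 0.094 and were not called. The next genes outward, Ak5 beyond Pigk and Msh4 beyond Asb17, differed by -0.63 and 0.056. Another pair of neighbours, St6galnac4 and St6galnac6 on chromosome 2, differed by 0.54 and -0.20; St6galnac4 was called as higher with the block only (adjusted p = 0.00728).

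**Figure D2:**
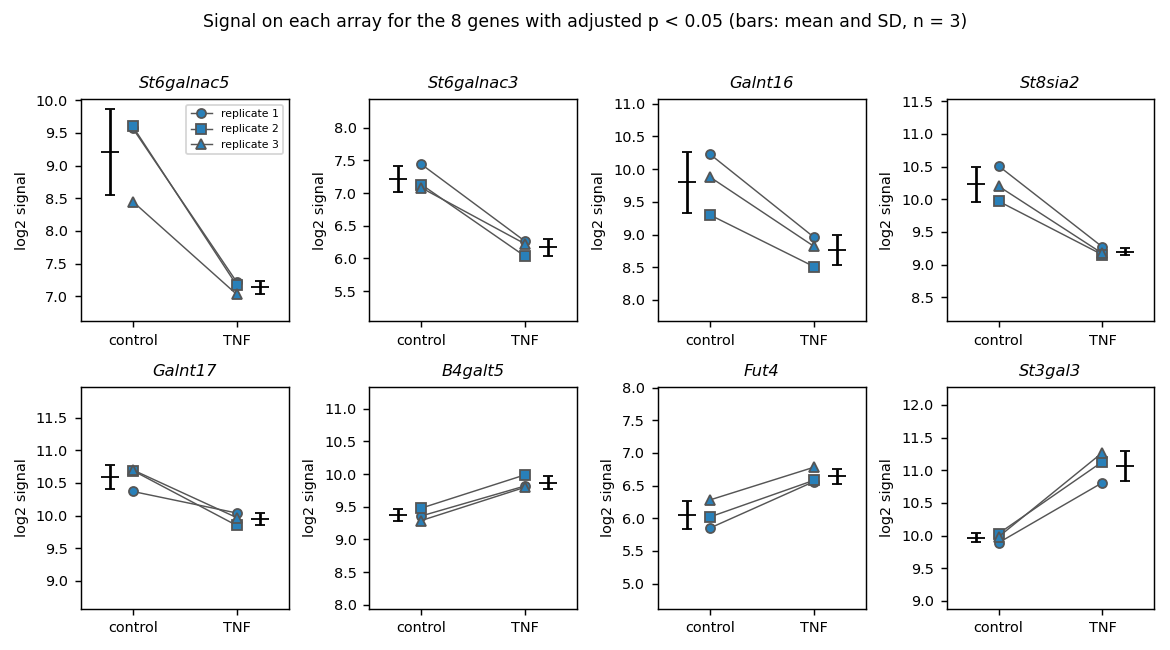
Log2 signal on each array for the 8 members called without the block, with lines joining control and TNF samples of the same number and bars for the mean and SD of each group (n = 3); every panel spans the same height. In all 8 panels the 3 TNF points lie on 1 side of the 3 control points, and the control 3 point of St6galnac5 lies at 8.45, below the other controls.

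The first steps of the glycolipid path showed the pair of lactosylceramide synthases on opposite sides. B4galt5 signals were 9.36, 9.48 and 9.29 in controls and 9.82, 9.99 and 9.80 with TNF, with no overlap. B4galt5 rose by 0.49 (SE 0.11, 1.41-fold higher, limma adjusted p = 0.0400), but no fit that left out 1 array kept the call, with adjusted p up to 0.156 without TNF 2. B4galt6 signals were 9.66, 9.99 and 9.68 in controls and 9.26, 9.41 and 9.07 with TNF, a difference of -0.53 that was called with the block only (adjusted p = 0.0692 without and 0.00398 with the block). The 95% interval of the difference ran from 0.23 to 0.75 for B4galt5 and from -0.86 to -0.20 for B4galt6. Whether the responses of the 2 genes differ was not tested.

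Of the enzymes that set the main ganglioside series, St3gal5 and St8sia1 were called in neither fit and B4galnt1 with the block only. St3gal5, the GM3 synthase at the entry of the path, was 8.59 ± 0.29 in controls and 8.73 ± 0.05 with TNF (SD, n = 3), with a 95% interval of the difference from -0.21 to 0.51. St8sia1, the GD3 synthase, was dim, with a mean signal of 6.20 over all arrays. It differed by -0.24 (interval from -0.57 to 0.097), and 1 of its 3 pairs was higher. B4galnt1, which makes GM2 and GD2, had signals of 7.20, 7.32 and 7.32 in controls and 7.66, 7.60 and 7.72 with TNF. These groups did not overlap, and the difference of 0.38 was called with the block only (adjusted p = 0.0738 without and 0.0153 with it). B3galt4, the GM1 synthase, St3gal2, which sialylates the outer galactose, St6galnac6, B3gnt5 and St8sia5 differed by 0.22, 0.052, -0.20, -0.29 and -0.16 and were called in neither fit.

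Of the 4 enzymes that lengthen sialic acid chains, only St8sia2 was called. St8sia2 had control signals of 10.51, 9.97 and 10.20 and TNF signals of 9.27, 9.15 and 9.17. The TNF samples lay within a narrow range below every control. The gene fell by 1.03 (SE 0.15, 2.04-fold lower, limma adjusted p = 0.00614), though the call was lost when both arrays numbered 3 were left out (adjusted p = 0.0727). St8sia4, the other polysialic acid synthase, was dim at 5.04 ± 0.20 in controls and 5.09 ± 0.16 with TNF (interval of the difference from -0.28 to 0.38), and its difference changed sign in 2 of the 6 fits without 1 array. St8sia3 and St8sia6 differed by -0.058 and 0.0014, also at low signals. Ncam1, the neural cell adhesion molecule that carries polysialic acid, had signals of 11.45, 11.81 and 11.64 in controls and 10.74, 10.96 and 10.84 with TNF. Ncam1 thus fell alongside St8sia2, by 0.79 (SE 0.13, 1.73-fold lower, limma adjusted p = 0.0110), and also lost its call without both arrays numbered 3 (adjusted p = 0.0897).

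Among the 9 sialyltransferases of N- and O-glycans 1 rose and none fell without the block; at an unadjusted p under 0.05 there were 2 higher and 3 lower, and with the block also 2 and 3. St3gal3, which caps galactose on N-glycans and glycolipids, had signals of 9.89, 10.03 and 9.98 in controls and 10.81, 11.13 and 11.27 with TNF. The controls were tightly grouped and every TNF sample lay well above them. The gene rose by 1.10 (SE 0.14, 2.15-fold higher, limma adjusted p = 0.00359). On chromosome 4 of GRCm38.p6 its neighbours Artn and Kdm4a differed by 0.33 and 0.60.

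St3gal6, which caps N-glycan galactose as St3gal3 does, ran the other way. Its signals were 9.53, 8.67 and 9.03 in controls and 8.46, 7.81 and 7.84 with TNF. The groups did not overlap, but replicate 1 was high in both, and the difference of -1.04 (SE 0.26) lay just outside the threshold at an adjusted p of 0.0521, reaching 3.26e-04 with the block. St6gal1, the main enzyme of the other linkage at this position, was 9.06 ± 0.15 in controls and 8.59 ± 0.13 with TNF. Its difference of -0.47 was called with the block only (adjusted p = 0.0702 without and 0.0131 with it). St3gal4 at -0.42 followed the same course (adjusted p = 0.157 without and 0.00895 with the block). St3gal1, which caps core O-glycans, differed by 0.12, St6galnac1 by 0.087, St6galnac2 by -0.20 and St6gal2 by -0.13, and none of them was called in either fit.

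**Figure D3:**
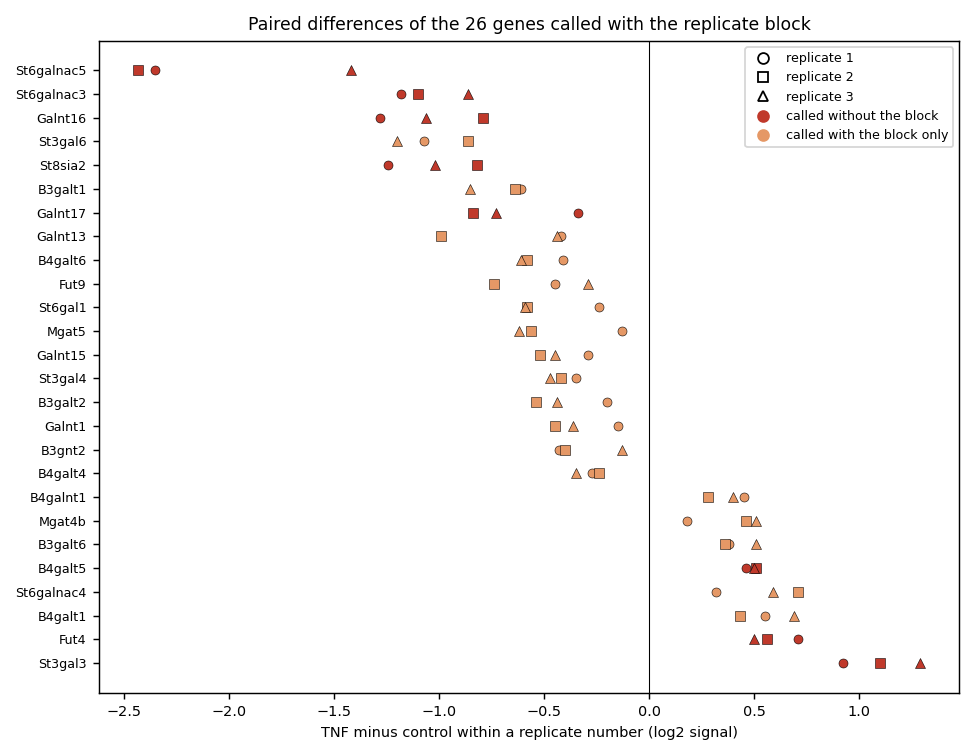
Difference in log2 signal between the TNF and control sample of the same number for the 26 members called with the replicate block; circles, squares and triangles are replicates 1, 2 and 3, red marks genes also called without the block and orange those called with it only. All 3 symbols of a gene lie on the same side of zero, and replicate 3 of St6galnac5, at -1.42, is closer to zero than its other pairs at -2.35 and -2.43.

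The fucosyltransferases that make Lewis x, both dim, also differed in sign. Fut4 signals were 5.85, 6.02 and 6.28 in controls and 6.56, 6.58 and 6.78 with TNF. All were low signals, with the lowest TNF value above the highest control. Fut4 rose by 0.59 (SE 0.14) at an adjusted p of 0.0480 with limma, just inside the threshold, and the call was lost under 3 of 6 other settings on all arrays and in 5 of the 6 fits without 1 array. Fut9, the Lewis x synthase typical of brain, was dimmer than Fut4, with a mean signal of 5.84 over all arrays. Its signals of 6.04, 6.34 and 5.89 in controls and 5.59, 5.60 and 5.59 with TNF may lie near background. The difference of -0.50 was called with the block only (limma adjusted p = 0.0756 without and 0.0135 with it). Fut8, which adds the core fucose of N-glycans, was 8.76 ± 0.27 and 8.60 ± 0.14, and the interval of its difference ran from -0.53 to 0.21. Fut7, Fut2, Fut10 and Fut11 differed by -0.23, 0.21, 0.21 and 0.034 and were called in neither fit.

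Of the 8 measured galactosyltransferases not placed in the glycolipid group above, none was called without the block. Limma gave 1 higher and 2 lower at an unadjusted p under 0.05, and the block called 2 higher and 3 lower. B4galt1, the main galactosyltransferase of N-glycans, had signals of 8.88, 9.11 and 8.67 in controls and 9.43, 9.54 and 9.36 with TNF. Its groups did not overlap, and its difference of 0.56 (SE 0.14) was just outside the threshold at an adjusted p of 0.0540, and was called under 5 of 7 other settings on all arrays and with the block (0.00379). B3galt6 builds the linker of proteoglycans. Its signals were 7.40, 7.63 and 6.71 in controls and 7.78, 7.99 and 7.22 with TNF, so the groups overlapped while the pairs differed by 0.38, 0.36 and 0.51. The adjusted p was 0.530 without and 0.00959 with the block. B3galt1, B3galt2 and B4galt4 were lower with the block only, at -0.70, -0.39 and -0.28. B4galt7, of the same proteoglycan linker, B4galt3 and B3galt5 differed by 0.11, 0.031 and -0.23.

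The N-glycan branching group took every member whose symbol starts with Mgat, 11 in all, whatever its activity. None was called without the block (limma, 1 higher and 1 lower at an unadjusted p under 0.05). Within 0.25 of zero lay 9 of them, or 81.8%, beside 72.2% of all genes, which is near the background. Mgat5, which starts the branch that carries long lactosamine chains, had signals of 10.93, 11.36 and 11.39 in controls and 10.80, 10.80 and 10.76 with TNF. Its difference of -0.44 was called with the block only (adjusted p = 0.135 without and 0.0299 with it), and pair 1 differed by only -0.13. Mgat4b, of another branch, differed by 0.38 and was called as higher with the block (adjusted p = 0.0257). Mgat3, which adds the bisecting residue, was 8.27 ± 0.04 and 8.08 ± 0.09 (difference -0.19, adjusted p = 0.397), with no overlap between groups. Mgat1 and Mgat2, which open the complex-type path, differed by 0.048 and -0.049. Mgat4c and Mgat4d had mean signals of only 4.16 and 4.85.

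The 11 enzymes that extend chains with N-acetylglucosamine or N-acetylgalactosamine all had mean signals below the median gene, between 5.36 and 7.52. None was called with limma without the block, and none had an unadjusted p under 0.05; B3gnt2, the main poly-lactosamine extender, was lower with the block at -0.32 (adjusted p = 0.0438). The others lay between -0.12 for B3gnt4 and 0.14 for B3gnt8.

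Among the 19 genes of mucin-type O-glycan initiation, 2 fell and none rose without the block. This step transfers the first N-acetylgalactosamine to serine or threonine. At an unadjusted p under 0.05 (limma) 0 were higher and 2 lower, and with the block 5 were lower and none higher. Of all genes, 3.33% were called lower without the block and 11.8% with it. Galnt16 signals were 10.23, 9.30 and 9.88 in controls and 8.96, 8.51 and 8.82 with TNF. Replicate 2 was the lowest in both groups, and the groups did not overlap. Galnt16 fell by 1.04 (SE 0.24, 2.06-fold lower, limma adjusted p = 0.0403). Galnt17 signals were 10.37, 10.69 and 10.70 in controls and 10.04, 9.85 and 9.97 with TNF, and the gene fell by 0.63 (SE 0.13, adjusted p = 0.0255). Leaving out single arrays removed each of these calls 5 times out of 6, with adjusted p up to 0.131 for Galnt16 and 0.102 for Galnt17, both without TNF 2. Galnt13, Galnt15 and Galnt1 differed by -0.62, -0.42 and -0.32 and were lower with the block only. The other 14 members were called in neither fit, among them Galnt2 at 0.22, Galnt10 at 0.10, Galnt11 at -0.19 and Galnt18 at -0.27; Galnt5 had a mean signal of 4.83.

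**Figure D4:**
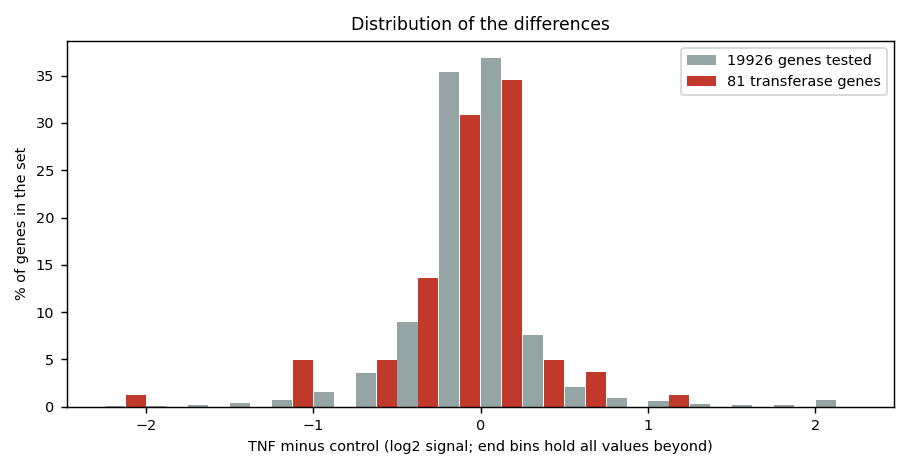
Share of genes (%) in bins of 0.25 log2 units of the difference between TNF and control, for the 81 members and for all 19926 genes tested; the end bins also hold values beyond them. Most members fall in the bins next to zero, as most genes do, with 5 members at -1 or lower and 1 at 1 or higher.

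The genes that supply, trim or read these glycans were counted in 9 further lists, 131 genes in all. Of these 4 rose and 7 fell, or 3.05% and 5.34%, against 3.87% and 3.33% of all genes. With the block 15 were higher and 19 lower, or 11.5% and 14.5%, against 9.73% and 11.8% of all genes, so the lists as a whole were near the background. None of the 13 genes of sialic acid supply and removal was called with limma, with or without the block, and none had an unadjusted p under 0.05 without it. Slc35c1, which carries the fucose donor into the Golgi, was the only call without the block among 12 fucose genes and rose by 0.52 (8.03, 7.96 and 7.91 in controls, 8.49, 8.52 and 8.42 with TNF, limma adjusted p = 0.0215). Lfng, the Notch-modifying lunatic fringe, was lower with the block only, at -0.78 (adjusted p = 0.288 without and 0.00133 with it). Ugp2, which makes UDP-glucose, a precursor of the galactose donor, was the only call without the block among 15 donor genes of galactose and N-acetylhexosamines. Its signals were 10.71, 10.82 and 10.89 in controls and 9.42, 9.48 and 9.34 with TNF, a fall by 1.39 (SE 0.11). With the block Gnpda2 and Slc35d1 were also lower, at -0.46 and -0.31.

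Of 25 genes of N-glycan assembly and trimming, 2 fell without the block: the Golgi mannosidase Man1c1 by 0.98 (adjusted p = 0.00836) and the endomannosidase Manea by 0.49 (adjusted p = 0.0268, both limma). With the block 3 were higher and 5 lower, the further ones being Man2a1, Alg12 and Alg3 at 0.50, 0.39 and 0.34 and Man2a2, Stt3b and Alg10b at -0.54, -0.41 and -0.32. B3gat2, a glucuronyltransferase of the HNK-1 epitope, fell by 0.76 and was the only call without the block among 13 genes of the O-mannose and HNK-1 list. With the block B4gat1, B3galnt2 and B3gat1 were also lower, at -0.50, -0.33 and -0.27, and Pomgnt1 was higher, at 0.28. Galc, which breaks down galactosylceramide, fell by 0.82, the only call without the block among 14 glycolipid genes. With the block 3 others were higher: Gla, a lysosomal galactosidase, at 0.63, A4galt, the Gb3 synthase, at 0.50, and Ugcg, the glucosylceramide synthase, at 0.38. Chst2, which sulfates N-acetylglucosamine, fell by 0.73, the only call without the block among 10 sulfotransferases. Chst1, which sulfates galactose, differed by 1.06 in the other direction, with pairs at 1.81, 0.64 and 0.74. Its groups did not overlap, but narrowly, with control 3 at 7.67 and TNF 2 at 7.73. Chst1 was called with the block only (limma adjusted p = 0.0736 without and 0.0114 with it). Gal3st4 at 0.42 and Chst8 at -0.39 were also called with the block only. None of the 7 genes of mucin-type O-glycan cores was called with limma without the block, and none had an unadjusted p under 0.05; with the block Gcnt1 was lower (adjusted p = 0.0114).

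A galectin, which binds galactose-ended chains, and a galectin-binding protein gave the largest differences of these lists. Lgals9, galectin-9, had signals of 6.98, 7.09 and 7.80 in controls and 11.10, 12.16 and 11.75 with TNF, a 20.8-fold rise (log2 difference 4.38, SE 0.30, limma adjusted p = 1.85e-04). Lgals3bp, a galectin-binding glycoprotein, rose 6.29-fold from 10.45 ± 0.41 to 13.11 ± 0.26 (SD, n = 3). Podxl, a sialylated cell surface mucin, rose by 0.97, and Ncam1 was the only one of the 22 lectins and carriers to fall without the block. With the block Lgals8 and Selplg were also higher, at 0.36 and 0.28, and Lgals4 lower, at -0.37. Of the 11 calls without the block in these lists, those of Ugp2, Man1c1, Lgals9, Lgals3bp and Ncam1 were kept in all 6 fits without 1 array. Of the other 6, Chst2 was lost in 1 fit, Galc in 3, Podxl in 4, Slc35c1 and B3gat2 in 5 each and Manea in all 6. Without both arrays numbered 3, only Ugp2, Lgals9 and Lgals3bp were still called.

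**Figure D5:**
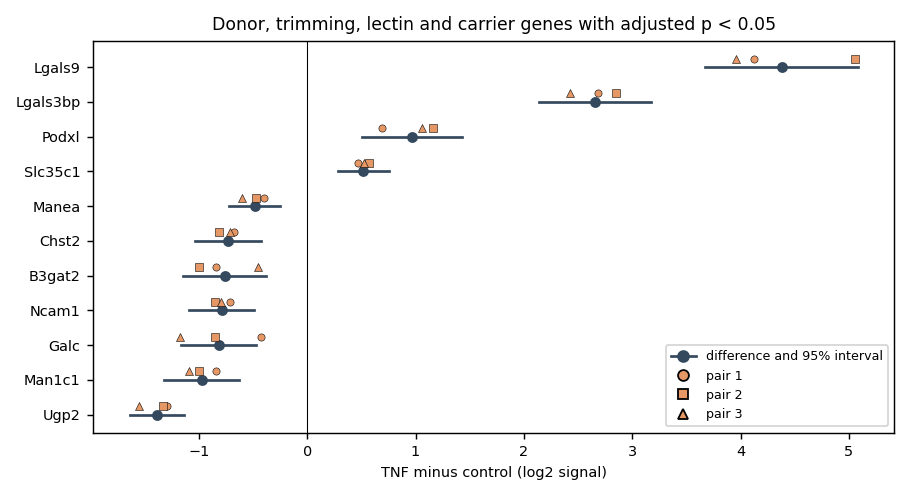
Difference in log2 signal between TNF and control with its 95% interval (dark points and lines) and the difference within each replicate pair (orange symbols) for the 11 genes called without the block among the lists of donors, trimming enzymes, sulfotransferases, glycolipid enzymes, lectins and carriers. Lgals9 lies at 4.38 and Ugp2 at -1.39, and no interval reaches zero.

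Over the 81 members, 4 of the 8 calls were kept in all 6 fits without 1 array: St6galnac5, St6galnac3, St8sia2 and St3gal3. Without both arrays numbered 3, the members still called were St3gal3 (adjusted p = 0.0378), St6galnac3 (0.0336) and St6galnac5 (0.00205). In that fit 2.01% of all genes were called higher and 1.16% lower. For markers of other cell types the median difference was 0.089 for microglia, -0.036 for oligodendrocytes and precursors, -0.054 for neurons, 0.034 for endothelial cells, -0.032 for fibroblasts and mural cells and -0.080 for ependymal cells. In each of these lists, microglia included, most markers had mean signals below the median gene. Of these lists no marker rose without the block, and 1 fell in each of 4 lists. These were Olig1 at -1.21 (control mean 11.29) for oligodendrocytes and precursors and Map2 at -1.22 (10.84) for neurons. The others were Kdr at -0.915 (7.32) for endothelial cells and Acta2 at -0.96 (13.37) for fibroblasts and mural cells. With the block 3 of 15 microglia markers were higher, 3 of 7 ependymal markers were lower, 1 neuron marker was higher and 2 were lower, 2 fibroblast and mural markers were lower, and 1 marker each of endothelial cells and of oligodendrocytes and precursors was lower. Of the 12 astrocyte markers 4 fell without the block (Atp1b2, Aldoc, Gja1 and Glul) and none rose, with a median of -0.46. With the block 7 astrocyte markers were lower and 2 higher, Aqp4 and Slc1a2, each at 0.60 with no overlap between groups. Of all genes, 3.87% were called higher and 3.33% lower without the block, and 9.73% and 11.8% with it. Beside the members' differences these marker values are given as measured, and their part was not tested.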

How the data were processed

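RNA was hybridised to 1-colour Affymetrix Mouse Gene 1.0 ST arrays, 1 per sample. The deposited values are on a log2 scale and cover 35544 probe sets; the submitters' processing notes name RMA (background correction, quantile normalization, probe summary) and limma, without versions. The log base was read from the values (2.04 to 14.37). Of the probe sets, 21777 had exactly 1 gene symbol in the platform annotation, 1621 several and 12146 none; for each gene the 1 with the highest mean was kept, leaving 19926 genes. All 81 members matched RefSeq (GRCm38.p6) by Entrez number. Promoter sequences are RefSeq's; no genome was used.

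TNF was compared with control by limma 3.58.1 (lmFit, eBayes; R 4.3.3), two-sided, with 4 residual degrees of freedom, or 2 with the replicate block. Control and TNF arrays of 1 number deviated together from their group means, with correlations of 0.55, 0.65 and 0.75 for numbers 1, 2 and 3, over the 0.1 needed to treat the numbers as pairs; the pairing rests on the values. Alternatives were other centring, quantile normalization, array weights, trended and robust variance, leaving out dim genes, other probe sets and fewer arrays. The fit without the block was run on simulated data with unpaired noise and 200 genes changed by 2 log2 units. Smaller differences and the fit with the block were not simulated. The members, lists and promoter motifs were chosen with earlier results of these data known. Members are named if called in either fit, as key enzymes of a step, by the highest or lowest mean signals, or to complete a group. Of each further list up to 4 genes called without the block are named; those called with the block only were named after their values were seen. Python 3.11.15 prepared the tables.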

Additional observations from a re-analysis of the deposited data

How the results depend on the processing

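Of the 31 members followed through the alternatives, none changed direction except St8sia4, which ran from -0.042 to 0.16 in the fits without 1 array (-0.033 without control 1, -0.042 without TNF 3) and was never called. Of the members, 3 were called higher and 5 lower as reported, 5 and 8 after quantile normalization, 8 and 18 with the replicate block, and 6 higher with array weights. Leaving out 1 array, or both numbered 3, gave 1 to 2 higher and 2 to 5 lower. Over all genes the replicate block gave 1938 higher and 2351 lower, against 771 and 663; fits with arrays left out gave 401 to 669 higher and 231 to 455 lower. Over the further lists, 4 were higher and 7 lower as reported, 15 and 19 with the replicate block, and 7 higher without dim genes. Fits with arrays left out gave 2 to 5 higher and 1 to 6 lower. The median difference over the members was -0.16 without dim genes, which left 35 of them, against -0.044. Over all genes left in that fit it was -0.0041. Median centring moved the median of all genes from -0.0033 to 0.010. The causes were not tested. The low number of arrays and the missing detection calls limit what can be said of the 46 members below the median signal.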

Other observations

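Other probe sets of members were not part of the comparison. Fut11 has another one that differed by 0.12, St3gal1 one that differed by -0.091, and Galntl6 had 2, at -0.20 and 0.027. Members at or above the median gene signal, those left without dim genes, had a median difference of -0.16. Over all genes in that part of the array it was -0.0041.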
